A study of Mus musculus with 4 samples.

Results

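T cell receptor gene segments are the pieces from which a T cell builds its antigen receptor, and their RNA was followed here in splenic CD4+ T cells of C57BL/6 mice. The members were all genes whose symbol names a variable (V), diversity (D) or joining (J) segment of the alpha, beta, gamma or delta chain, together with *Trac*, *Trbc1*, *Trbc2* and *Trdc*, the constant (C) genes of the alpha, beta and delta chains. They came to 266 of the 55367 genes in the count tables: 130 V, 60 J and 1 C gene of the alpha chain, 35 V, 2 D, 14 J and 2 C genes of the beta chain, 6 V, 2 D, 2 J and 1 C gene of the delta chain, and 7 V and 4 J genes of the gamma chain. Gamma C genes did not match the naming rule and are given only beside the gamma segments. Bulk RNA was sequenced with 50-bp reads from 2 libraries labelled WT and 2 labelled as conditional knockout of *Satb1*, a genome organizer that binds AT-rich DNA, here called cKO (KO in their titles). By the study's methods the deletion was driven by *Thpok-cre*, which acts after CD4 lineage commitment, and both sexes were used. The labels give no age, no sex and no Cre or floxed allele status for the WT mice. Nothing in them ties a replicate to a litter or a day, so p-values measure only the spread between these libraries.

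In a developing T cell the RAG recombinase cuts and joins 1 V, any D and 1 J segment, and splicing then links this exon to the C gene. The alpha locus lies on chromosome 14 with the delta locus inside it, so joining an alpha V to an alpha J removes the delta segments from that chromosome. In the mouse a stretch of the alpha V region is repeated, and the copies carry d or n in their names (*Trav7d-3*, *Trav9n-1*), while genes with the same first number form a V subgroup of closely related sequence. CD4+ T cells are nearly all alpha beta T cells, whereas gamma delta T cells use *Trdc* and the gamma genes. Rearrangement is complete before T cells reach the spleen. Use of joined segments in a bulk population therefore reflects which clones it holds and how much receptor RNA each makes. Fewer cells of a type and less RNA per cell cannot be told apart in bulk samples.

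Some sequences show what a 50-bp read could and could not tell apart. All were read from GENCODE M21 transcripts on build GRCm38 (mm10), with positions on the + strand. The beta D segments are shorter than a read, so a read over them also covers a neighbouring segment or unjoined flanking DNA.
Trbd1 (chr6:41533201-41533212): gggacagggggc
Trbd2 (chr6:41542163-41542176): gggactgggggggc

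J segments encode the end of the antigen-binding loop followed by a conserved F-G-X-G turn. The next set shows the J gene that passed the test (*Traj3*), the most counted alpha and beta J genes (*Traj6*, *Trbj1-1*) and a beta J gene annotated as a pseudogene that was nevertheless highly counted (*Trbj2-6*). Capitals mark a match to TTNGG followed, after any 4 bases, by GG and 1 more base, searched on the sense strand only, which was present in 46 of the 60 alpha J genes (76.7%) and 11 of the 14 beta J genes (78.6%). Neither *Traj3* nor *Trbj2-6* holds these letters.
Traj3 (chr14:54217292-54217357): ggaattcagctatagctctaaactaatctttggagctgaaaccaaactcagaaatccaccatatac
Traj6 (chr14:54212688-54212749): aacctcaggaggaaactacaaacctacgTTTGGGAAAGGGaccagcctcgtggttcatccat
Trbj1-1 (chr6:41533864-41533911): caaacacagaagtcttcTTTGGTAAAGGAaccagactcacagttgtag
Trbj2-6 (chr6:41543598-41543645): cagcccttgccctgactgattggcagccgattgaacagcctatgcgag

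Alpha V copies of a subgroup are alike enough that many reads fit more than 1 gene. The last 90 bases of 4 Trav7 and 4 Trav14 copies are printed because the 2 V genes that passed the test, *Trav7-6* and *Trav14-2*, are among them. Capitals mark bases that differ from *Trav7-6* in the first 4 and from *Trav14-2* in the others. *Trav14-3* differs from *Trav14-2* at 3 of these 90 bases and *Trav14d-3-dv8* at 2, while *Trav7-5* differs from *Trav7-6* at 11.
Trav7-6 (gene at chr14:53716716-53717291): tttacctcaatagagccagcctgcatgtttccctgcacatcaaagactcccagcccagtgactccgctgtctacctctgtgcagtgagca
Trav7-5 (gene at chr14:53530786-53531313): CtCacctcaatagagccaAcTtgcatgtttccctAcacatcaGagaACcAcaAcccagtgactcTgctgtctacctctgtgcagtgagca
Trav7-3 (gene at chr14:53443249-53443839): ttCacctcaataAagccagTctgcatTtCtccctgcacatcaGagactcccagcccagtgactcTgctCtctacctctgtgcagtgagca
Trav7d-3 (gene at chr14:52744249-52744840): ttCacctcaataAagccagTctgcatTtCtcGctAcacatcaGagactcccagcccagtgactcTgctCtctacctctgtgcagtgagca
Trav14-2 (gene at chr14:53640701-53641225): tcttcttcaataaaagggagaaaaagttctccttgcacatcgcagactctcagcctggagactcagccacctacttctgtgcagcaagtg
Trav14-3 (gene at chr14:53763173-53763694): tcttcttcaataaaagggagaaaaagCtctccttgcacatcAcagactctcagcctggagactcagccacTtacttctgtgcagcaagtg
Trav14-1 (gene at chr14:53554022-53554558): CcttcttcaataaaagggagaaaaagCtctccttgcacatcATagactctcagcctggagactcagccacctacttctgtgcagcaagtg
Trav14d-3-dv8 (gene at chr14:53078452-53079045): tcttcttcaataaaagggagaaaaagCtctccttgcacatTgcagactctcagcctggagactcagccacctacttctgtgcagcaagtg

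Library totals ranged from 4495902 to 6555699 gene counts. The targeted gene was not lower in the libraries labelled as its knockout: *Satb1* gave 865 and 979 CPM (counts scaled to a library of 1000000 counts) in WT and 941 and 844 in cKO (log2 fold change -0.05, adjusted p = 0.877, edgeR), and counts over the whole gene do not show whether part of it was removed. *Foxp3*, the regulatory T cell factor, was called higher in cKO (141 and 120 against 404 and 545 CPM). The sex-linked genes *Xist* and *Ddx3y* split exactly with genotype, *Xist* at 830 and 945 CPM in WT against 1.71 and 1.27 in cKO, so sex and genotype cannot be told apart. The CD4 T list (*Cd4*, *Cd3e*, *Cd3d*, *Cd5*, *Cd28*) summed to 3321 to 3625 CPM in the 4 libraries, with 0 of 5 called (1 of 5 at an unadjusted p under 0.05). The library cKO 1 held the most B cell and myeloid RNA: 6 B cell markers summed to 44.4 CPM there against 9.29 to 11.9 in the others, and 6 myeloid markers to 78.7 against 21.9 to 37.7. Of these lists *Pax5*, *Lyz2* and *S100a9* were called higher in cKO. Of the 5 myeloid markers tested 4 were higher and 1 lower. The lower was *Itgam* (2.13 and 2.23 CPM in WT against 1.33 and 1.06 in cKO), not called. The part that sex, *Foxp3*-expressing cells and other cell types have in the receptor results was not tested.

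Receptor segments took a small and similar part of every library. They received 18594, 12531, 18105 and 13454 counts in WT 1, WT 2, cKO 1 and cKO 2, which is 0.284%, 0.279%, 0.337% and 0.291% of all gene counts. Of the 266 members 202 had a count in any library, 109 reached 10 counts in at least 1 library, and 85 passed the low-count filter and were tested. The 64 members at 0 in every library included 48 alpha V genes. A count of 0 allows up to 3 counts, or 0.457 to 0.669 CPM in these libraries, counting error only.

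Of the 85 members tested, 4 passed at an adjusted p under 0.05 (edgeR quasi-likelihood test, two-sided), which is 4.71%, against a background of 4.30% of all 12403 genes tested. All 4 were higher in cKO, the direction in which 2.35% of all genes were called. They were the delta constant gene *Trdc*, the alpha V genes *Trav7-6* and *Trav14-2*, and the alpha J gene *Traj3*. *Trav7-6*, *Trav14-2* and *Traj3* passed the low-count filter only through their cKO libraries, so their direction is not independent of the filter. *Trav9n-1*, with 13 and 25 counts in WT and 0 and 0 in cKO, did not pass it. The share of members called was near the background, and 40 of the 85 (47.1%) had genotypes that did not overlap, against 50.3% of all genes. The median log2 fold change of the members was 0.03, and that of all genes was 0.00. The number called depended on the libraries, as it did over all genes: it was 1 without WT 2 (*Trdc*), where 1.40% of all genes were called, 9 without WT 1 (4.02%), 13 without cKO 2 (12.8%) and 4 without cKO 1 (10.6%). It was 2 (*Trdc* and *Trav7-6*) with DESeq2, where 3.44% of all genes were called, and with the receptor total as library size, where 3.13% were, and 17 of 202 with no low-count filter, where 5.72% of all genes were called.

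Summed by group, delta C was the only receptor segment group that passed the test. The alpha V genes together gave 186 and 205 CPM in WT and 227 and 181 in cKO (log2 fold change 0.06 ± 0.13, SE), and the beta V genes 761 and 757 CPM against 898 and 724 (0.10 ± 0.13). Genotypes overlapped in both groups. Alpha J genes gave 43.9 and 36.1 CPM in WT against 46.9 and 49.7 in cKO, and beta J genes 51.6 and 53.3 against 47.8 and 59.0. The sparse beta D, delta V and gamma V groups gave log2 fold changes of -0.69, 0.34 and 0.36, with 1.27 to 6.77 CPM in the single libraries. Of 10 groups with enough counts to test only delta C passed, against 4.28% of genes in that fit. With no low-count filter, where 5.70% of all genes in that fit were called, alpha C passed as well. It also passed without cKO 2, where a larger share of all genes was called.

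**Figure D1:**
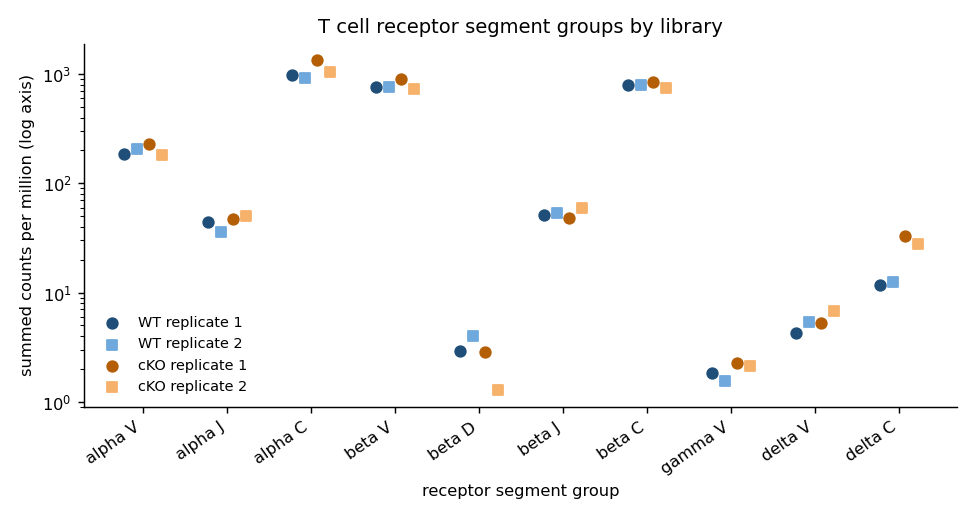
Summed CPM (log axis) of the 10 tested receptor segment groups, with 1 point for each of the 4 libraries; groups differ in total length, so heights are compared within a group only. Delta C lies at 11.7 and 12.5 CPM in WT and 32.8 and 27.7 in cKO, and no other group passed the test; the genotypes also do not overlap in alpha C, alpha J, gamma V and the sparse beta D group.

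*Trac*, the single constant gene of the alpha chain (chr14:54220521-54224206, 935 exonic bases), gave 973 and 918 CPM in WT and 1331 and 1048 in cKO. The genotypes did not overlap, but the difference of 0.33 ± 0.14 on the log2 scale did not pass over all genes (adjusted p = 0.242, edgeR). It passed without cKO 2 (adjusted p = 0.000383), where the remaining cKO library was the one richest in B cell and myeloid RNA. Values for the beta constant genes overlapped: *Trbc1* was at 205 and 225 CPM in WT and 220 and 197 in cKO, and *Trbc2* at 591 and 577 against 621 and 552. Their log2 fold changes were -0.04 and 0.01, with 95% intervals of the fold of 0.823 to 1.14 and 0.848 to 1.19. Per kb of exon, mean levels were 1142 CPM for *Trac*, 846 for *Trbc2* and 283 for *Trbc1*. The *Trbc2* to *Trbc1* count ratio was 2.88, 2.57, 2.82 and 2.81 in WT 1, WT 2, cKO 1 and cKO 2. The 2 genes are near-identical in coding sequence, and only 59.5% of the 50-base windows of *Trbc1* and 56.0% of those of *Trbc2* were unique to the gene among all annotated transcripts, so both are undercounted. *Trac* counts per beta C count were 1.22 and 1.14 in WT and 1.58 and 1.40 in cKO.

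*Trdc*, the constant gene of the delta chain (chr14:54142851-54148868), was the member whose call held under every alternative tried, 12 of 12. It had 77 and 56 counts in WT and 173 and 131 in cKO, or 11.7 and 12.5 against 32.8 and 27.7 CPM. Both cKO libraries lay above both WT libraries, by 2.51-fold (95% interval 1.89 to 3.33, log2 fold change 1.33 ± 0.18 SE, adjusted p = 0.00577). Per 100 *Trac* counts, *Trdc* gave 1.21 and 1.36 in WT and 2.47 and 2.65 in cKO. Per kb of exon its mean level was 5.48 CPM, against 1142 CPM for *Trac*. A gene on the opposite strand, *Gm43434*, shares 96 of the 3865 exonic bases of *Trdc* (2.48%) and was also called higher (3.05 and 3.35 against 7.40 and 11.2 CPM, log2 fold change 1.54, adjusted p = 0.0416). *Trdv5* shares 207 of those bases (5.36%) on the opposite strand and had 2 to 4 counts per library. HTSeq leaves out reads that fit several genes, so reads on shared bases were lost to both genes unless strand was used in counting. Whether strand was used is not stated.

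The other receptor genes of gamma delta T cells gave little RNA, and none of them passed. *Trdv1* had 17 and 12 counts in WT and 11 and 19 in cKO, and *Trdv2-2* had 8 and 9 against 14 and 7, with genotypes overlapping for both (log2 fold changes 0.20 and 0.42). The other delta V genes stayed at 4 counts or fewer in every library, both delta D genes were at 0, and the 2 delta J genes had 1 count each, both in WT 1. The 7 gamma V genes together gave 12 and 7 counts in WT and 12 and 10 in cKO, most of them from *Trgv2* and *Trgv4*. Gamma J genes had 1, 1, 0 and 0 counts in WT 1, WT 2, cKO 1 and cKO 2. The gamma constant genes outside the member list were as sparse: *Trgc1* had 12, 7, 9 and 11 counts in the same order, *Trgc2* 17, 8, 8 and 17, *Trgc3* 1, 0, 0 and 1, and *Trgc4* 2, 2, 4 and 9. Of these only *Trgc2* could be tested (log2 fold change 0.17, adjusted p = 0.897). Of the markers listed for gamma delta T cells, *Sox13*, *Blk*, *Cd163l1* and *Il23r* stayed between 0 and 3.79 CPM, too low to be tested.

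*Trbv3* was the most counted beta V gene in every library. Each V gene's use is its share of the counts of its group in that library, here 3393 to 4996 beta V counts. *Trbv3* took 15.4% and 14.8% in WT and 14.3% and 15.4% in cKO. By the mean over the 4 libraries *Trbv13-2* followed with 11.3%, *Trbv15* with 11.03%, *Trbv19* with 7.10% and *Trbv13-3* with 6.39%. *Trbv13-2* was above *Trbv15* in WT 1 (597 against 466 counts) but not in WT 2 (362 against 363), cKO 1 (558 against 559) or cKO 2 (362 against 420). Per base of exon, *Trbv13-2* came first (13.1%) and *Trbv3* next (13.0%), so the order of the top genes rests on their length. Between any 2 libraries only 4.79% to 9.29% of beta V use had to be moved to make them equal. The share was 4.79% for the WT pair, 5.51% for the cKO pair, and 5.72% to 9.29% between genotypes. A chi-square per degree of freedom over genes with 10 counts in the pair, which is about 1 where libraries differ by counting error alone, was 1.17 for the WT pair, 2.83 for the cKO pair and 2.45 to 7.98 between genotypes. Over all genes with 10 counts it was 2.83 for the WT pair and 6.68 for the cKO pair. The highest beta V values, 6.16 and 7.98, were those of cKO 1 against the WT libraries. The effective number of beta V genes, which is the number of equally used genes with the same Shannon entropy, was 15.7 and 15.6 in WT and 15.2 and 15.6 in cKO (exact permutation p = 0.3333, two-sided, the smallest that 2 against 2 can give).

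No beta V gene was called. The share of all genes with an unadjusted p under 0.05 (edgeR) was not counted, so no excess is read here. Under that threshold were 5 of the 22 beta V genes tested. *Trbv26* and *Trbv4*, which were chosen after their values were seen, had the smallest p-values of these. *Trbv26* took 3.66% and 4.33% of beta V counts in WT and 1.29% and 3.10% in cKO, the Wilson 95% interval in cKO 1 being 1.01% to 1.65%. Its log2 fold change was -0.84 ± 0.27 (adjusted p = 0.130), and all of its 50-base windows were unique. *Trbv4* took 1.001% and 0.796% in WT and 1.88% and 1.49% in cKO (log2 fold change 1.01 ± 0.29, adjusted p = 0.0962), with 27.9% of windows unique. Genotypes did not overlap for either gene, and cKO 1 lay farther from WT than cKO 2 for both. *Trbv15* took 9.33% and 10.7% in WT and 11.8% and 12.3% in cKO, and did not pass (adjusted p = 0.168). With no low-count filter and with the replicate block *Trbv26* and *Trbv4* were called, where 5.72% and 9.39% of all genes were. Without cKO 2 the log2 fold changes of *Trbv26*, *Trbv4* and *Trbv15* in the subgroup fit were -1.38, 1.28 and 0.489. Without WT 1 that of *Trbv26* was -0.948.

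**Figure D2:**
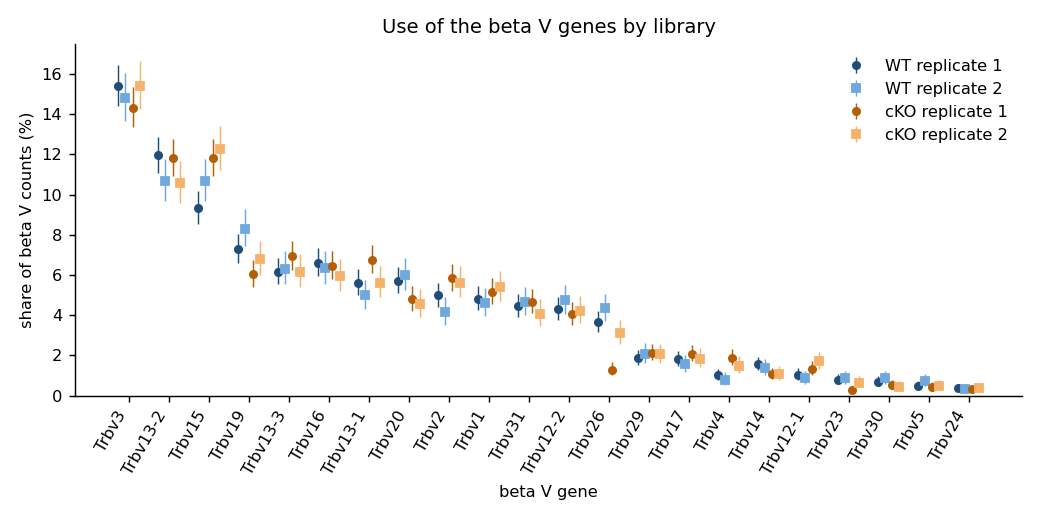
Share of beta V counts (%) taken by each of the 22 tested beta V genes in the 4 libraries, ordered by mean share, with Wilson 95% intervals that cover counting error only. *Trbv3* is highest in all libraries, and *Trbv26* in cKO 1 (1.29%) lies below its 3 other values.

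Beta J and D genes gave few counts and no call. Whether a J count came from joined or unjoined RNA was not tested. *Trbj1-1* took 16.2% and 19.7% of beta J counts in WT and 21.0% and 13.3% in cKO, and *Trbj1-4* a mean of 13.5%. The annotated pseudogene *Trbj2-6*, whose sequence without the J motif is printed above, was the third at 10.9%, with 28, 28, 29 and 34 counts. *Trbj1-3* and *Trbj2-1* took 7.74% and 7.47%. Genes of the Trbj1 cluster, which lies upstream of *Trbc1*, took 58.1% and 54.8% in WT and 56.7% and 56.99% in cKO. Of 11 beta J genes tested 6 had positive and 5 negative log2 fold changes, from -0.55 to 0.39. *Trbd1* had 14, 15, 12 and 6 counts in WT 1, WT 2, cKO 1 and cKO 2 (log2 fold change -0.57, adjusted p = 0.585), and *Trbd2* 5, 3, 3 and 0.

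Alpha V use was compared between libraries by single copies and by subgroups. Alpha V counts per library were 854 to 1221. *Trav14d-3-dv8* had the highest mean share, with 5.16% and 6.84% in WT and 4.18% and 3.86% in cKO, and *Trav14-1*, *Trav13-1*, *Trav19* and *Trav14n-3* followed with means of 3.98%, 3.96%, 3.73% and 3.34%. In cKO 1 *Trav14n-3* was above it (52 against 50 counts), and in cKO 2 *Trav14-1* and *Trav13-1* were (44 and 40 against 33). Per base, *Trav13-1* came first by the mean. The share of alpha V use to be moved was 20.1% for the WT pair and 14.6% for the cKO pair. It was 18.3% and 19.4% from WT 1 to the cKO libraries and 31.04% and 34.4% from WT 2, so WT 2 lay farther from cKO than WT 1 did. These shares rise with fewer counts and more genes, so they are not set against those of the beta V genes. The chi-square per degree of freedom was 2.25 for the WT pair, 1.15 for the cKO pair, 2.45 and 2.26 from WT 1 to cKO and 5.62 and 5.56 from WT 2. With the copies summed by subgroup, which can only lower these shares, they were 7.12% and 6.17% within genotypes, 8.44% to 12.1% from WT 1 and 11.5% to 13.5% from WT 2. The chi-square measure by subgroup was 1.14 for the WT pair, 0.661 for the cKO pair, 2.84 and 1.34 from WT 1 to cKO 1 and cKO 2, and 3.04 and 2.098 from WT 2, so for WT 1 against cKO 1 it was higher by subgroup than by copy. The effective number of alpha V genes was 52.2 and 45.1 in WT and 51.4 and 50.5 in cKO (exact permutation p = 1.0, two-sided), the lowest value being that of WT 2.

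*Trav7-6* had 7 and 2 counts in WT and 25 and 32 in cKO (1.07 and 0.446 against 4.74 and 6.77 CPM). The difference was 6.93-fold (95% interval 3.19 to 15.1, log2 fold change 2.79 ± 0.49, adjusted p = 0.0172). *Trav14-2* had 11 and 5 counts against 33 and 24, a difference of 3.91-fold (2.07 to 7.40, adjusted p = 0.0317). Neither gene's genotypes overlapped. Neither was called without WT 2 (adjusted p = 0.0977 and 0.207), where the log2 fold changes were 2.40 and 1.75, against 2.79 and 1.97 with all libraries, and 1.40% of all genes were called. *Trav14-2* was also not called with DESeq2 or with the receptor total as library size (0.0961 and 0.0558). Among their 50-base windows 56.9% for *Trav7-6* and 54.4% for *Trav14-2* were unique to the gene.

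Other alpha V genes differed in both directions without passing. Of the uncalled members *Trav14-3* and *Trav7-5* had the largest positive log2 fold changes, 2.08 and 1.92 (adjusted p = 0.0982 and 0.0687). *Trav14-3* had 8 and 4 counts in WT and 36 and 11 in cKO, and *Trav7-5* 15 and 3 against 37 and 24. *Trav7-3* and *Trav8d-1* had the largest negative ones, -1.64 and -1.56 (adjusted p = 0.176 and 0.100). *Trav7-3* had 20 and 33 counts in WT and 12 and 4 in cKO, and *Trav8d-1* 20 and 19 against 7 and 5. In *Trav7-5* and *Trav14-3* WT 2 was the lowest library, and in *Trav7-3* it was the highest. Without cKO 2 the log2 fold changes of *Trav7-5* and *Trav14-3* were 2.11 and 2.63. Without WT 1 those of *Trav7-5* and *Trav7-3* were 3.14 and -2.19. With the replicate block *Trav7-5* and *Trav14-3* were called (adjusted p = 0.00603 and 0.00957, edgeR), where 9.39% of all genes were. With no low-count filter all 4 were called (adjusted p from 0.000162 to 0.0364, edgeR), where 5.72% of all genes were.

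The copies were also summed and tested by subgroup. The Trav7 subgroup had 129 and 108 counts in WT and 164 and 105 in cKO (log2 fold change 0.30 ± 0.20, adjusted p = 0.472), and the Trav14 subgroup 170 and 124 against 216 and 139 (0.40 ± 0.18, adjusted p = 0.273). Of 66 V subgroups 38 were tested and 0 were called by edgeR, against 4.22% of genes in that fit. At an unadjusted p under 0.05 there were 8, of which 5 were higher and 3 lower in cKO, and DESeq2 called 0 with 3 under 0.05. The share of all genes under that threshold was not counted, so no excess is read from these numbers. The number called was 7 without cKO 2, where 12.8% of all genes in that fit were called, 1 without WT 1 (3.65%) and 2 with no low-count filter (5.67%).

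**Figure D3:**
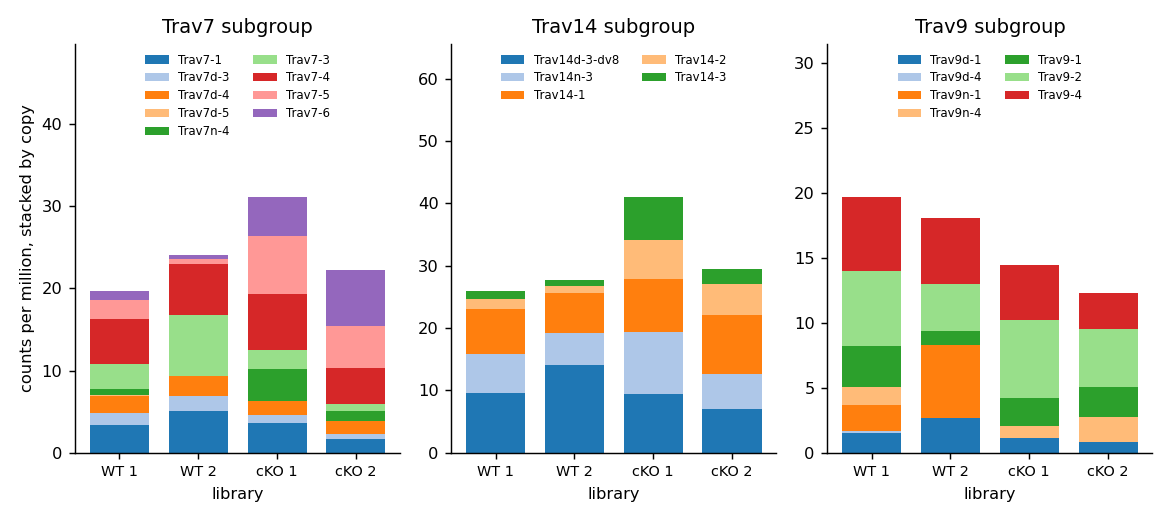
CPM of the Trav7, Trav14 and Trav9 subgroups in the 4 libraries, stacked by gene copy from farthest to nearest *Trac*. *Trav7-6* and *Trav7-5* are thin in WT 2 (0.446 and 0.669 CPM) and thick in cKO, while *Trav9n-1* is present in WT only.

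Some alpha V genes were at 0 in single libraries, as a pattern chosen after the values were seen. *Trav16* had 12 and 0 counts in WT and 19 and 15 in cKO, and *Trav6-7-dv9* 12 and 0 against 24 and 16. *Trav7n-4* had 5 and 0 against 21 and 6. These were at 0 in WT 2 only, where 0 allows up to 0.669 CPM. *Trav9n-1*, annotated as a pseudogene, went the other way with 13 and 25 counts in WT and 0 in both cKO libraries. A 0 there allows up to 0.569 and 0.635 CPM. *Trav9n-1* was too low for the main filter and was called lower with no filter or with one at 1 CPM in 2 libraries.

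By place in the locus, also chosen after the values were seen, the share of positive differences varied. All 9 tested genes more than 1100 kb upstream of *Trac* had negative log2 fold changes (median -0.61, from -1.56 to -0.07). Between 440 and 740 kb 16 of 20 were positive, with a median of 0.26 and both called genes among them. From 740 to 1100 kb 4 were positive and 4 negative, and from 340 to 440 kb 1 was positive and 2 were negative. All 4 tested copies with d in the name were lower in cKO and all 4 with n were higher, none of them called. Copies with d took 15.6% and 20.5% of alpha V counts in WT and 10.6% and 11.7% in cKO, and copies with n 12.4% and 9.99% against 14.0% and 13.8%. Genes of the same stretch share sequence with copies elsewhere, so they are not independent of each other.

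**Figure D4:**
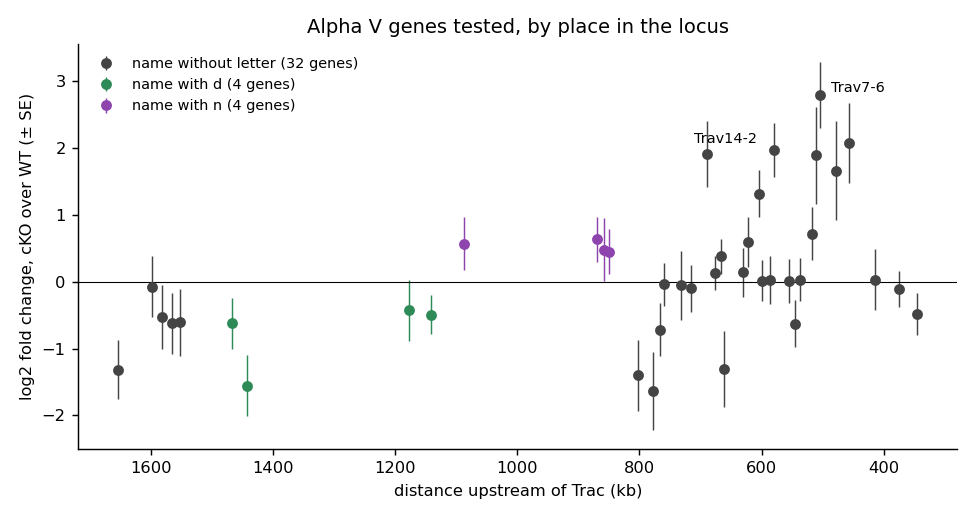
Log2 fold change (cKO over WT, ± SE) of the 40 tested alpha V genes against distance upstream of *Trac* (kb), coloured by the letter in the gene name. Genes beyond 1100 kb lie below 0, and most between 440 and 740 kb lie above it, with *Trav7-6* and *Trav14-2* labelled.

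How many reads an alpha V gene could receive depended on its sequence. Of 128 alpha V genes with a transcript, 42 had no unique 50-base window, and 36 of these 42 were at 0 in all libraries. The median share of unique windows was 0% in the 47 genes at 0 and 55.8% in those with a count. Among beta V genes 28 of 35 were unique throughout. *Trav11*, the V gene of the invariant receptor of natural killer T cells, and its copy *Trav11d* had no unique window and no count. Its partner *Traj18* had 12 and 2 counts in WT and 7 and 3 in cKO. *Trav1* and *Traj33*, which form the invariant receptor of mucosal-associated T cells, had 5, 7, 12 and 6 and 3, 3, 3 and 0 counts in WT 1, WT 2, cKO 1 and cKO 2. All of these were too low to be tested. Of the genes listed for NKT cells, *Zbtb16* (3.35 and 3.79 against 1.71 and 3.17 CPM), *Klrb1c* and *Cd1d1* were tested and not called. Their log2 fold changes were -0.55, -1.07 and 0.37, so *Cd1d1* did not share the direction of the others.

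*Traj3* was the only alpha J gene called, of 5 tested. It had 3 and 3 counts in WT and 14 and 14 in cKO, a 4.97-fold difference (95% interval 2.18 to 11.3, adjusted p = 0.0451). The call rests on few reads. It was not made without WT 1 or WT 2 (adjusted p = 0.244 and 0.186), with the 1 CPM filter (0.0547) or with the receptor total as library size (0.0854), and DESeq2 gave it no adjusted p. The log2 fold change was 2.31 with all libraries and 2.03 to 2.56 under these settings.

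Alpha J counts were spread thinly along the locus, at 162 to 288 per library over 60 genes. Whether they came from joined or unjoined RNA was not tested, so their shares are not shares of joined receptors. *Traj6* took a mean of 6.27%, *Traj15* 5.54%, *Traj1* 5.15%, *Traj2* 4.87% and *Traj22* 4.54%, and per base the short pseudogene *Traj1* came first. *Traj1* had 21 and 10 counts in WT and 5 and 12 in cKO (log2 fold change -0.69, adjusted p = 0.532). J genes 1 to 30, which lie nearest the constant gene, took 79.2% and 72.2% of counts in WT and 71.7% and 78.3% in cKO. The mean J number was 19.7 and 22.4 in WT and 22.7 and 19.3 in cKO (exact permutation p = 1.0, two-sided). Each genotype had 1 library with a larger share of counts on the upstream genes and 1 with a smaller share.

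**Figure D5:**
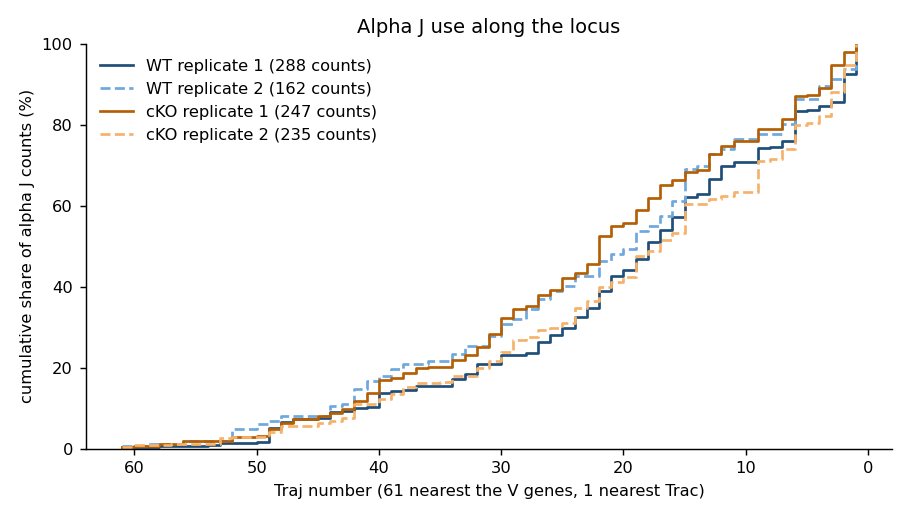
Cumulative share of alpha J counts (%) from the J gene nearest the V genes (61) to the one nearest *Trac* (1), 1 line for each library. WT 2 and cKO 1 run together above WT 1 and cKO 2, so the lines do not sort by genotype.

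The partners of the receptor at the cell surface and the recombination genes gave no call. Of 10 listed genes 8 were tested and 0 were called by edgeR, and 0 had an unadjusted p under 0.05, with a median log2 fold change of 0.13. The CD3 chains *Cd3d*, *Cd3e*, *Cd3g* and *Cd247*, which carry the signal of the receptor, had log2 fold changes of -0.09, 0.12, 0.09 and 0.13. *Cd4*, the coreceptor, stood at 1273 and 1262 CPM in WT and 1273 and 1177 in cKO, and *Cd28*, the costimulatory receptor, at 337 and 357 against 382 and 401. *Rag1*, a subunit of the recombinase, was low (5.33 and 8.48 against 9.87 and 5.50 CPM), and so was *Dntt*, which adds bases at the joints (3.50 and 2.23 against 4.93 and 4.02 CPM). *Rag2* had 4, 2, 0 and 1 counts and *Ptcra*, the pre-T alpha chain, 0, 1, 0 and 0 in WT 1, WT 2, cKO 1 and cKO 2. *Cd3e* was called without cKO 2 (adjusted p = 0.0402). *Cd8b1*, a chain of the CD8 coreceptor, was called lower in cKO (42.2 and 51.8 against 27.3 and 22.4 CPM) while *Cd8a* was not (log2 fold change -0.07, adjusted p = 0.941).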

How the data were processed

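By the study's methods and the submitters' processing notes, the authors aligned 50-bp reads of 4 splenic CD4+ T cell libraries to mm10 with HISAT2 2.1.0 and counted them per gene with HTSeq 0.11.1 (the methods give another release). The deposited values are raw counts per gene symbol with no scaling; annotation and strand setting are not given in the sources used here. HTSeq leaves out reads that fit several genes or places, so copies are undercounted, and reads on no gene were 59.4% to 64.5% of reads placed once; such summary lines were kept out of all tests. Annotation and sequences came from GENCODE M21 (GRCm38).

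Genotype was tested on all 12403 genes passing filterByExpr with the edgeR 4.0.16 quasi-likelihood test (R 4.3.3, TMM scaling, Benjamini-Hochberg, two-sided, 2 against 2 libraries, no covariate), and again with segments summed by group and V genes by subgroup. CPM uses TMM-scaled totals. Intervals of shares are Wilson intervals; reads carry no molecular identifiers, so they cover counting error only. Evenness and J position used exact permutation tests (SciPy 1.17.1). A window was unique if its 50 bases occurred in no other gene's transcripts. Alternatives were RLE, total and receptor-total scaling, DESeq2 1.42.0, other filters, thinning, a replicate block and leaving out each library. On data simulated for this comparison, edgeR recovered 80.6% of 196 genes changed 2-fold, with 6 false among 164 calls. It recovered 100% of 194 genes changed 4-fold. The changed genes were drawn from all tested genes, and every gene had the same dispersion. These shares therefore do not describe sparse or more variable receptor segments.

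Named were the constant genes, the 5 most used V and J genes of alpha and beta, all D genes, gamma and delta V or J genes with 10 counts, every called member, the 2 largest uncalled differences each way, *Trav11*, *Traj18*, *Trav1*, *Traj33* and the receptor partners. Members and lists were chosen with earlier results of these data known. Of the gamma delta T cell markers, 1 is not reported here.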

Additional observations from a re-analysis of the deposited data

How the results depend on the processing

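The number of members called, 4, became 2 with the receptor segment total as library size, 2 with DESeq2, 17 with no low-count filter (of 202 tested), 10 with the replicate block, and 1 to 13 with single libraries left out. The number of segment groups called, 1, became 2 with no low-count filter and 1 to 2 with libraries left out. The number of V subgroups called, 0, became 2 with no low-count filter, 2 with the replicate block and 0 to 7 with libraries left out. Among receptor partners 0 became 1 without cKO 2, so the range over libraries left out was 0 to 1. Same-numbered libraries did not deviate together (correlation 0.06), so the replicate block is not taken as a pairing; under the block all genes called went from 533 to 1165.

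Differences between genotypes in 2 single measures changed sign: the mean Traj number, -0.01, became 1 as a median and -1.71 to 1.69 with libraries left out, and the effective number of alpha V genes, 2.27, became -1.29 to 5.82. The Traj measure over genes with 10 counts in every library could not be given, because 1 gene was left.

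Of 432 values of single genes, groups and subgroups under an alternative, 376 kept direction and side of the threshold, 9 lost the call, 22 gained it and 25 reversed. The reversed log2 fold changes were all uncalled. With the receptor total as library size, which moved the median of all genes to -0.15, they were *Trbc2* -0.148, alpha V -0.102, beta J -0.113, beta V -0.0656, *Cd3e* -0.0383, *Cd3g* -0.0573 and *Cd247* -0.0229. With thinning they were beta J -0.00787 and *Rag1* -0.0205. With libraries left out, values ran from -0.126 to 0.0376 for *Trbc1*, -0.0812 to 0.0902 for *Trbc2*, -0.328 to 0.610 for *Trdv1*, -0.0656 to 0.768 for *Trdv2-2*, -0.112 to 0.218 for alpha V, -0.0943 to 0.0761 for beta C, -0.131 to 0.172 for beta J, -0.0695 to 0.243 for beta V, -0.221 to 0.0362 for *Cd3d*, -0.0327 to 0.262 for *Cd3e*, -0.106 to 0.00808 for *Cd4* and -0.285 to 0.559 for *Rag1*. The cause was not tested. Where 1 library of a genotype is left, it is assumed to vary like the other genotype. Counts under about 10 limit most alpha J, gamma and delta segments.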
